A study of Mus musculus with 12 samples.

Results

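The 33 genes described here serve the endoplasmic reticulum (ER) and the first steps of secretion. They were listed by name in 4 roles: 14 chaperones and folding enzymes, 8 translocon genes, 8 genes of the COPII coat and 3 KDEL receptors. A gene was read from a probe set that the platform annotation gives to that gene alone, and from the one with the highest mean log2 signal where there were several. This found 32 of the 33 genes, out of 18193 genes on the arrays. Sec61g, a small subunit of the translocation channel, has only a probe set that it shares with further gene symbols and was not analysed here. The choice of probe set within a gene used mean brightness and no difference between groups.

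Proteins bound for secretion or for membranes enter the ER through the Sec61 channel, helped by the translocon-associated proteins (the Ssr genes), and signal peptidase trims them. In the ER lumen chaperones such as BiP, encoded by Hspa5, and the lectins calnexin and calreticulin fold them. COPII vesicles carry the folded cargo to the Golgi, and the KDEL receptors bring escaped chaperones back. The unfolded protein response raises many of these genes together when folding demand grows, and endoderm cells that lay down basement membrane secrete heavily.

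F9 is a mouse teratocarcinoma line whose stem cells retinoic acid (RA) can drive towards endoderm. Total RNA was measured on 12 Affymetrix arrays, 3 in each of 4 groups, all after 24 h and all in the same serum-containing medium. KO_RA was cells labelled knock out for Rarg, the gene of retinoic acid receptor gamma, in 1 µM RA, and KO_vehicle was the same cells in ethanol. WT_RA and WT_vehicle were wild-type F9 cells in 1 µM RA and in ethanol. How the knockout was made, and whether it is 1 clone, is not given in the sources used here. No label says that the 3 arrays of 1 group stem from separate cultures, and p-values therefore measure only how these arrays spread.

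The Rarg probe set averaged 1357 ± 288 in KO_RA, 1636 ± 102 in KO_vehicle, 1243 ± 222 in WT_RA and 1476 ± 292 in WT_vehicle (MAS5 signal, SD, n = 3). It was thus not lower in the arrays labelled KO, and whether its probes lie in the disrupted part is not known here, so KO means the label throughout. The RA-induced gene Stra8 rose under RA by 2.01 in KO and by 2.60 in WT on the log2 scale (limma adjusted p = 4.99e-05 and 2.68e-06). Cyp26a1, a 2nd retinoid target, rose by 1.99 in KO and by 3.03 in WT (adjusted p = 0.0129 and 6.71e-05). Between KO and WT, Cyp26a1 was lower in KO by 1.38 in vehicle and 2.43 in RA (adjusted p = 0.0134 and 9.52e-05). Stra8 was higher in KO by 0.82 in vehicle and 0.23 in RA (adjusted p = 0.0129 and 0.656). Each of 3 fluidics runs held 1 array of every group, and run 1 held replicate 3 of each. The sample titles of the run 1 arrays begin with letters, and those of runs 2 and 3 with numbers. The titles do not say what this coding stands for, and run 1 cannot be told apart from the letter-coded sample set. Results are therefore also given within runs and from a fit that blocks on the run. Chip lots fell unevenly: KO_vehicle replicates 1 and 2, KO_RA replicate 1 and WT_RA replicate 3 came from a different lot than the others. In runs 2 and 3 the KO and WT arrays in vehicle thus also differed in lot. The 2 arrays scanned late were both KO, KO_RA replicate 1 after 238 min and KO_vehicle replicate 3 after 316 min. The array median signal was between 71.18 and 94.62 on 11 arrays and 142.9 on KO_vehicle replicate 3.

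The sums of endoderm and embryonal carcinoma markers moved with the label. The summed signal of 15 endoderm markers, 11 of them above background, was 13120 to 39740 in KO_RA and 11790 to 36590 in KO_vehicle, against 72700 to 93710 in WT_RA and 83030 to 87380 in WT_vehicle. Replicate 3 of both KO groups had the lowest sums, 13120 in RA and 11790 in vehicle. All 10 embryonal carcinoma markers were above background, and their sum was 136900 to 147600 in KO_RA and 139900 to 166300 in KO_vehicle, against 88260 to 102200 in WT_RA and 123500 to 129400 in WT_vehicle. By gene, 8 of these 10 were higher in KO in vehicle and 9 in RA. Pou5f1 was lower in both, with means of 14510 against 18960 in vehicle and 14050 against 15040 in RA. Sall4 was lower in vehicle, 7054 against 8255. The 9 fibroblast and muscle markers, 3 above background, summed to 436.7 to 514.4 in KO_RA and 423.6 to 1416 in KO_vehicle, against 512.6 to 653.2 in WT_RA and 489.5 to 738.8 in WT_vehicle. Between KO and WT limma called 0 of these 9, with 1 in vehicle and 0 in RA at an unadjusted p under 0.05, and 0 with runs blocked. Over all 18193 genes, 3744 in vehicle and 3632 in RA had an unadjusted p under 0.05. Of 7 blood and endothelial markers 3 were above background. Their sums were 1080 to 1358 in KO_RA and 880.7 to 1784 in KO_vehicle, against 694.1 to 1072 in WT_RA, which does not overlap KO_RA, and 793.8 to 1357 in WT_vehicle. Among them Pecam1 rose in KO by 1.26 in RA and by 1.21 in vehicle on the log2 scale (limma adjusted p = 0.00177 and 0.00331), and Cdh5, whose mean was below background, was lower in KO in RA (adjusted p = 0.0416). Pecam1 alone averaged 776.9 in KO_RA against 313.1 in WT_RA, a large part of the KO_RA sums. Cd68, also above background, went the other way and was not called in the fit without the run block. It averaged 241.1 in KO_RA against 316.8 in WT_RA, and 237.9 in KO_vehicle against 490.6 in WT_vehicle. With runs blocked 1 of the 7 markers was called higher and 1 lower in KO, in vehicle and likewise in RA. The part of these differences in the genotype results below was not tested. In bulk RNA, fewer cells of a type and less RNA per cell cannot be told apart.

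All 32 genes lay above background, a level of 53.06 set at the 95th percentile of 86 probe sets of smell and taste receptor genes, as did 12254 of the 18193 genes. Values compared are log2(signal + 16), and each difference has its standard error (SE) from limma. A gene is called where its Benjamini-Hochberg adjusted p over all 45037 probe sets was under 0.05.

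In vehicle, 4 of the 32 genes fell in arrays labelled KO and 0 rose. They were the KDEL receptor genes Kdelr3 and Kdelr2, the translocon-associated gene Ssr4 and the calreticulin gene Calr. Over all 18193 genes 6.42% were called, 4.01% lower and 2.41% higher, and over those above background 9.37%. In RA, 3 of the 32 were called: Canx, encoding calnexin, rose, and Kdelr3 and Ssr4 fell. There 7.55% of all genes were called, 3.26% higher and 4.28% lower, and 11% of those above background. Counts of 4 and 3 in 32 stand close to these shares, so the list as a whole was not set apart by its number of calls.

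The median log2 difference of the 32 genes was -0.19 in vehicle, with 28 below 0, beside 0.13 over all genes and 0.02 over those above background. In RA it was -0.15, with 21 below 0, beside -0.05 over all genes and -0.04 over those above background. Other scalings moved the median of all genes in vehicle to 0.02 (quantile normalization) and -0.09 (each array centred on its median), and that of the 32 genes then stood at -0.14 and -0.41. In RA the same scalings moved the median of all genes to 0.01 and 0.08, and that of the 32 genes to -0.21 and -0.02, so the RA median of the list was close to 0 with centred arrays. The signals of the arrays did not overlap for 14 of the 32 genes in vehicle, 2 higher and 12 lower, beside 24.1% of all genes, 12.5% higher and 11.5% lower. In RA 11 genes did not overlap, 4 higher and 7 lower, beside 28.3% of all genes, 12.4% higher and 16% lower. Of the 12254 genes above background, 3704 did not overlap in vehicle, 1662 higher and 2042 lower. In RA 4454 of them did not, 1985 higher and 2469 lower. The comparisons in vehicle and in RA share no arrays, and 25 of the 32 genes had the same sign in both, 21 lower and 4 higher. Among all genes above background 73% had the same sign in both.

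With runs blocked, 8 of the 32 genes were called in vehicle, Canx higher and Calr, Pdia3, Ssr1, Ssr4, Kdelr1, Kdelr2 and Kdelr3 lower. The block raised the share over all genes too, to 13.5%, with 5.78% higher and 7.77% lower, and to 19.8% of those above background, as all 32 are. In RA the block gave 9 calls, with Canx, Sec61b and Sar1b higher and Pdia3, Ssr4, Sec24d, Kdelr1, Kdelr2 and Kdelr3 lower. All genes then stood at 14.5%, with 6.76% higher and 7.78% lower, and those above background at 21.3%. With the chip lot as a block instead, 3 of the 32 were called in vehicle and 3 in RA. Of all 18193 genes 735 and 1335 were called in that fit. Kdelr2 in vehicle was then not called (limma adjusted p = 0.0733).

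**Figure D1:**
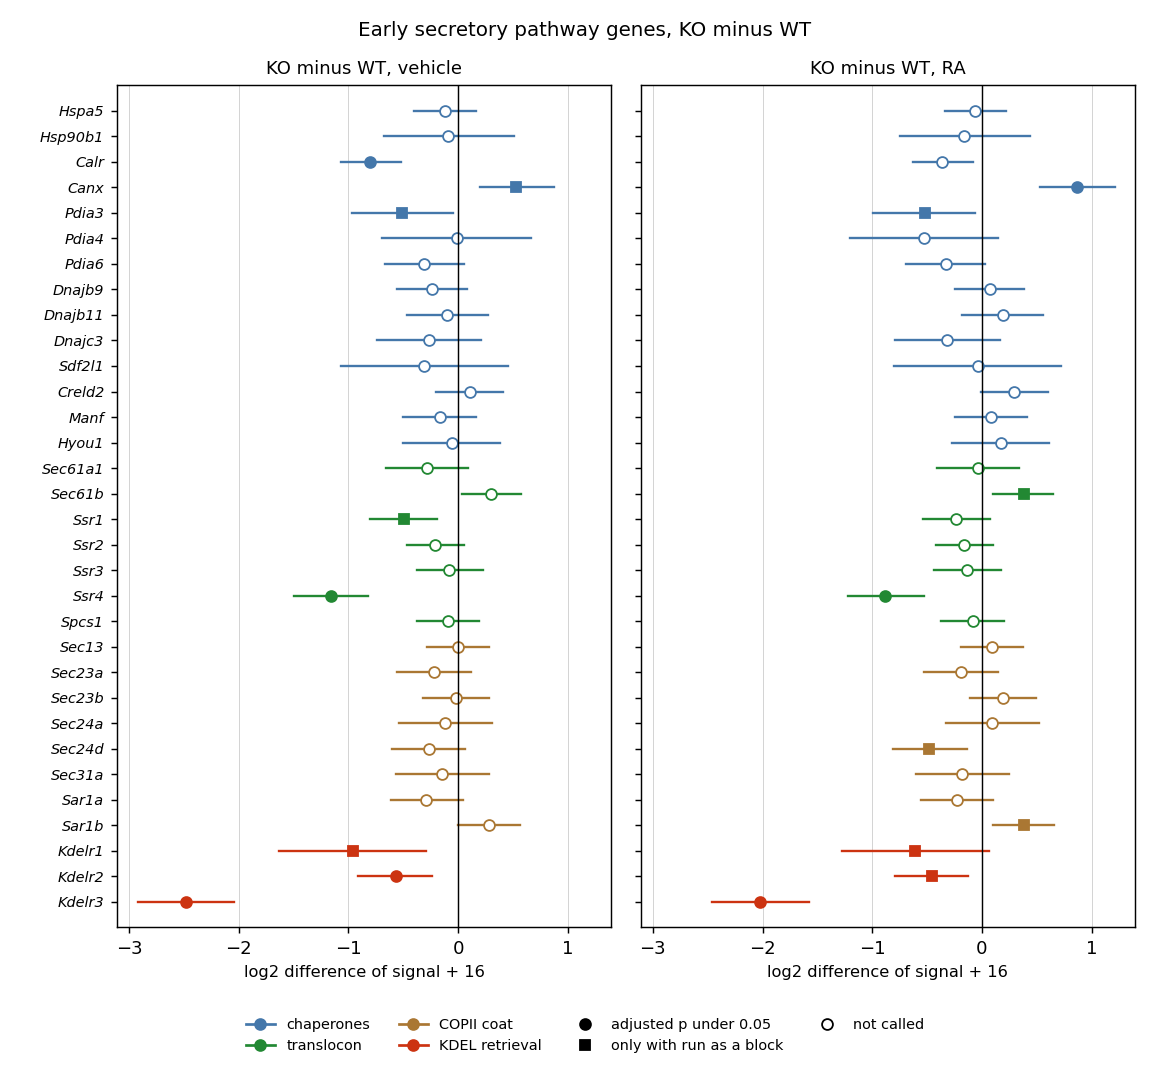
Log2 difference of signal + 16 between KO and WT (x axis) for each of the 32 genes (y axis, coloured by role), in vehicle on the left and RA on the right. Points are limma estimates and lines 95% intervals; filled circles passed an adjusted p of 0.05, squares passed it only in the run-blocked fit. Kdelr3 lies at -2.48 and -2.02, and Canx in RA is the only filled circle to the right of 0.

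The KDEL receptors bind the C-terminal KDEL signal of ER chaperones in the Golgi and return them to the ER. Their median log2 difference between KO and WT was -0.96 in vehicle and -0.61 in RA, and all 3 were lower in KO in both. Kdelr3 had signals of 411.1, 277.2 and 329.7 in KO_vehicle, against 1762, 1719 and 2421 in WT_vehicle. In RA the Kdelr3 signals were 523.1, 337.8 and 384.9 in KO_RA, against 1593, 1614 and 1936 in WT_RA. Every KO array lay below every WT array, with a wide gap between them. Kdelr3 was 5.58-fold lower in KO in vehicle, a log2 difference of -2.48 (SE 0.207, 95% interval -2.92 to -2.04, limma adjusted p = 2.01e-06). In RA it was 4.06-fold lower, a log2 difference of -2.02 (SE 0.207, interval -2.46 to -1.58, adjusted p = 1.48e-05). Within runs 1, 2 and 3 the Kdelr3 difference came to -2.82, -2.06 and -2.56 in vehicle, and to -2.28, -1.58 and -2.20 in RA. The call held in all 27 alternative settings tried, with differences between -2.70 and -2.31 in vehicle and between -2.19 and -1.89 in RA. Of these, the setting with the second brightest probe set could not change it, because Kdelr3 has 1 probe set.

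Kdelr2 signals were 4019, 3865 and 3944 in KO_vehicle, against 5273, 5177 and 7443 in WT_vehicle. In RA they were 4373, 3849 and 4815 in KO_RA, against 5570, 5524 and 6844 in WT_RA. The groups did not overlap in either comparison, and the highest value in both WT groups was replicate 3, the array of run 1. The difference in vehicle was -0.57 (SE 0.156, adjusted p = 0.0464 in limma, 0.00168 with runs blocked), and a second Kdelr2 probe set gave -0.55 (adjusted p = 0.0312). This call is close to the threshold: it was lost when any of 10 of the 12 arrays was left out, with an adjusted p of up to 0.148, and without WT_vehicle replicate 3 the difference was -0.41. In RA the Kdelr2 difference of -0.46 was not called without the block (adjusted p = 0.123) and was called with it (adjusted p = 0.0104).

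Kdelr1 signals were 966.7, 1238 and 1266 in KO_vehicle, against 1673, 1734 and 3898 in WT_vehicle. They were 946.4, 1067 and 1999 in KO_RA, against 1590, 1616 and 2855 in WT_RA. The vehicle groups did not overlap. In RA the run 1 array of KO_RA lay above 2 arrays of WT_RA, and run 1 held the highest Kdelr1 value in all 4 groups. Run 1 is also the run whose KO arrays had the lowest endoderm marker sums, and the part of this in the differences was not tested. The log2 differences of -0.96 in vehicle and -0.61 in RA had an SE of 0.318 and were not called (limma adjusted p = 0.113 and 0.403). Both were called with runs blocked (adjusted p = 0.000225 and 0.012). Within runs 1, 2 and 3 they were -1.61, -0.78 and -0.48 in vehicle and -0.51, -0.74 and -0.59 in RA.

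**Figure D2:**
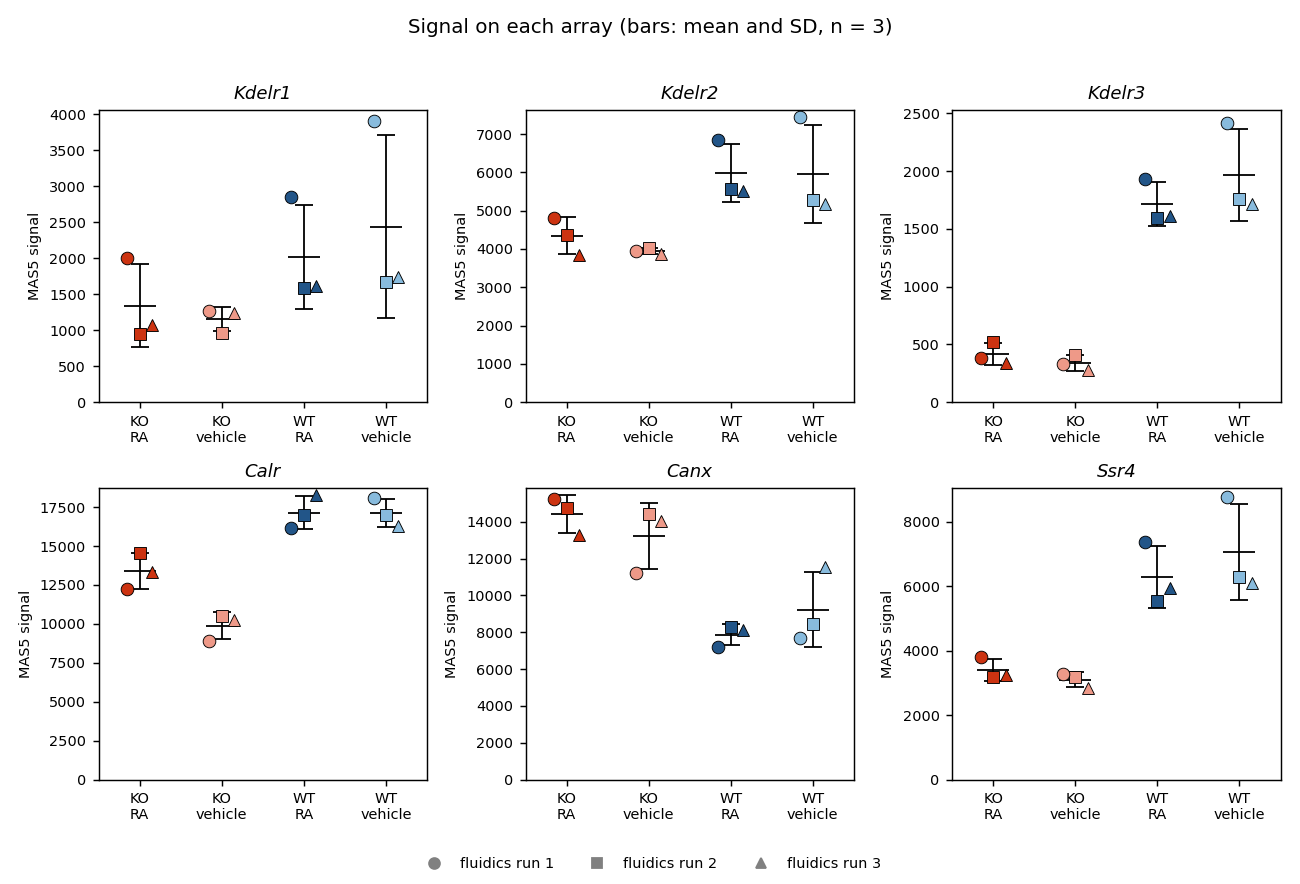
MAS5 signal on each array (y axis, linear, starting at 0) of 6 genes in the 4 groups (x axis). Symbols mark the fluidics run, and bars the mean and SD of 3 arrays. For Kdelr3, Kdelr2, Calr and Ssr4 each KO array lies below the WT arrays of the same treatment, for Canx in RA each KO array lies above them, and Kdelr1 is highest in run 1 in every group.

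Ssr4 encodes the delta subunit of the translocon-associated protein complex, which sits beside the Sec61 channel. Its signals were 3189, 2838 and 3276 in KO_vehicle, against 6279, 6107 and 8763 in WT_vehicle. In RA they were 3177, 3235 and 3806 in KO_RA, against 5538, 5941 and 7384 in WT_RA. No KO array reached the lowest WT array. The log2 difference was -1.16 in vehicle, 2.24-fold lower (SE 0.161, limma adjusted p = 0.000351), and -0.88 in RA, 1.83-fold lower (SE 0.161, adjusted p = 0.00299). In runs 1, 2 and 3 it came to -1.42, -0.97 and -1.10 in vehicle, and to -0.95, -0.80 and -0.87 in RA. The 2 dimmer Ssr4 probe sets did not show it: they gave 0.00 and 0.53 in vehicle and -0.27 and -0.01 in RA, none called, so the Ssr4 result rests on its brightest probe set. The RA call was also lost with centred arrays (-0.75, adjusted p = 0.178) and without limma's intensity trend (-0.88, adjusted p = 0.0693).

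The other translocon genes differed less. Ssr1, the alpha subunit of the same complex, had 4430, 3877 and 3152 in KO_vehicle, against 5735, 5000 and 5294 in WT_vehicle. These groups did not overlap, and the difference of -0.49 (SE 0.144) was called only with runs blocked (limma adjusted p = 0.0651 without the block and 0.012 with it). In RA the Ssr1 difference was -0.24 (adjusted p = 0.519). Sec61b, the beta subunit of the channel, had 8908, 9115 and 10780 in KO_RA, against 7102, 6972 and 8084 in WT_RA. All KO_RA arrays were above all WT_RA arrays, and the difference of 0.38 (SE 0.129) was called only with runs blocked (adjusted p = 0.127 without the block and 0.0344 with it). Sec61a1, the channel itself, Ssr2, Ssr3 and the signal peptidase gene Spcs1 had differences between -0.28 and -0.08 in vehicle and between -0.16 and -0.04 in RA, none called in either fit.

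Calr and Canx encode the related lectin chaperones calreticulin, soluble in the lumen, and calnexin, fixed in the membrane, and differed in opposite directions. Calr signals were 10530, 10260 and 8885 in KO_vehicle, against 17020, 16320 and 18100 in WT_vehicle. In RA they were 14580, 13350 and 12240 in KO_RA, against 16980, 18290 and 16170 in WT_RA. All KO arrays were below all WT arrays in both, with the narrower gap in RA. The difference in vehicle was -0.80, 1.74-fold lower (SE 0.131, limma adjusted p = 0.00152), and in runs 1, 2 and 3 it was -1.03, -0.69 and -0.67. In RA it was -0.36 (SE 0.131, adjusted p = 0.157, or 0.0505 in the run-blocked fit). All 3 Calr probe sets were called lower in vehicle, the other 2 at -0.76 and -0.83 (adjusted p = 0.0018 and 0.00291). In RA 1 of these 2 was called, at -0.46 (adjusted p = 0.0436). The vehicle call was lost with centred arrays (-1.01, adjusted p = 0.0613) and without limma's intensity trend (-0.80, adjusted p = 0.0572).

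Canx signals were 14720, 13260 and 15240 in KO_RA, against 8288, 8099 and 7222 in WT_RA. In vehicle they were 14440, 14050 and 11190 in KO_vehicle, against 8462, 11520 and 7661 in WT_vehicle. The RA groups stood well apart, while in vehicle KO_vehicle replicate 3 lay below WT_vehicle replicate 2. Canx was 1.83-fold higher in KO in RA, a log2 difference of 0.87 (SE 0.160, limma adjusted p = 0.00288), and in runs 1, 2 and 3 the difference was 1.08, 0.83 and 0.71. In vehicle the difference of 0.53 (SE 0.160) was called only with runs blocked (adjusted p = 0.0735 without the block and 0.0096 with it). A second Canx probe set gave 0.87 in RA (adjusted p = 0.0103) and 0.59 in vehicle (adjusted p = 0.101), and another, dim one gave 0.07 and 0.47, neither called. The RA call was lost with centred arrays (1.00, adjusted p = 0.0849) and without limma's intensity trend (0.87, adjusted p = 0.0686).

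Pdia3, the disulfide isomerase that works with both lectins, had signals of 8294, 8438 and 8427 in KO_vehicle, against 10700, 11180 and 14320 in WT_vehicle. In RA it had 7938, 5239 and 10720 in KO_RA, against 9096, 10070 and 14480 in WT_RA. The vehicle groups did not overlap, and the RA groups did. The differences of -0.51 and -0.52 (SE 0.219) were called only with runs blocked (limma adjusted p = 0.0299 in vehicle and 0.0247 in RA with the block, 0.249 and 0.245 without it).

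The other chaperones did not pass in either fit. Hspa5, encoding BiP, the main ER member of the Hsp70 family, had 13610, 14200 and 12280 in KO_vehicle, against 15550, 14980 and 13140 in WT_vehicle. In RA it had 15410, 16160 and 15690 in KO_RA, against 14730, 17950 and 16710 in WT_RA. The groups overlapped in both, and the Hspa5 differences of -0.12 and -0.06 had 95% intervals from -0.40 to 0.16 and from -0.34 to 0.22. Hsp90b1, which encodes the Hsp90 protein of the ER, differed by -0.09 in vehicle and -0.16 in RA with wider intervals, from -0.68 to 0.51 and from -0.75 to 0.44. Its WT_vehicle arrays spread from 3058 in run 1 to 7768 in run 2. The disulfide isomerases Pdia4 and Pdia6 differed by -0.01 and -0.31 in vehicle and by -0.53 and -0.33 in RA. The J-domain cochaperones Dnajb9, Dnajb11 and Dnajc3 differed by -0.24, -0.10 and -0.27 in vehicle and by 0.07, 0.19 and -0.32 in RA. Sdf2l1, Creld2, Manf and Hyou1, which like Hspa5 are raised by ER stress, lay between -0.31 and 0.11 in vehicle and between -0.04 and 0.29 in RA. Sdf2l1 was high in run 1 in every group: its run 1 signals were 1488, 1612, 1505 and 1888 in KO_RA, KO_vehicle, WT_RA and WT_vehicle, and its other arrays lay between 645.9 and 970.

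Of the COPII coat, 0 of 8 genes were called in vehicle in either fit. Sec24d, 1 of the adaptors that pick cargo, had 1134, 1033 and 1059 in KO_RA, against 1362, 1719 and 1441 in WT_RA. All KO_RA arrays were below all WT_RA arrays. The difference of -0.48 (SE 0.157) was called only with runs blocked (limma adjusted p = 0.106 without the block and 0.027 with it), and it was -0.44, -0.26 and -0.73 in runs 1, 2 and 3. In vehicle the Sec24d difference was -0.27 (adjusted p = 0.422).

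Sar1b, a small GTPase that starts coat assembly, was the COPII gene with the smallest p in vehicle. It had 3479, 3574 and 3464 in KO_vehicle, against 2988, 2782 and 2888 in WT_vehicle, a difference of 0.28 (SE 0.133, limma adjusted p = 0.311). In RA it had 3739, 3340 and 4110 in KO_RA, against 2690, 2675 and 3244 in WT_RA, a difference of 0.38 (SE 0.133, adjusted p = 0.139, or 0.0313 in the run-blocked fit). The KO arrays were above the WT arrays in both. Its paralogue Sar1a lay at -0.29 in vehicle and -0.23 in RA, not called. The inner coat genes Sec23a and Sec23b, the adaptor gene Sec24a and the outer coat genes Sec13 and Sec31a lay between -0.22 and 0.00 in vehicle and between -0.19 and 0.19 in RA.

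Other probe sets of the same genes gave a check on the choice of the brightest. Of 31 such probe sets above background, 25 had the sign of the chosen one in vehicle and 26 in RA. Of these 31, 3 were called in vehicle and 2 in RA, and 0 were called in the opposite direction. Kdelr1 and Kdelr3 have 1 probe set each and cannot be checked in this way.

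Genes that neighbour Kdelr3 on the RefSeq assembly GRCm38.p6 were read on the same arrays. Of the 3 on each side, Csnk1e, a casein kinase gene, fell by 1.07 in vehicle and by 1.38 in RA on the log2 scale in KO (limma adjusted p = 0.00794 and 0.00077). The other 5 were not called. Neighbours are named here because they were called, after their values were seen. Of the 6 neighbours of each of Ssr4, Calr and Canx, 0 were called in either comparison. Beside Kdelr2, Rac1 fell by 0.62 in vehicle (adjusted p = 0.036), and beside Kdelr1, Emp3 fell by 1.71 in vehicle (adjusted p = 0.0185) and Grwd1 rose by 0.87 in RA (adjusted p = 0.00435).

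Promoters were read from the RefSeq promoter table of GRCm38.p6, 300 bases per gene from 250 before to 50 after the start, in which 28 of the 33 genes matched. Motifs known from the unfolded protein response were searched on both strands. The ER stress response element, written CCAAT, 9 bases of any kind and CCACG, is the site through which NF-Y and ATF6 are known to act. It stood in 39 of 32851 promoters (0.119%) and in 7 of the 28 matched genes, all 7 among the 12 chaperones matched. The stretches around it are shown for all 7 genes that carry it, whether or not they differed between KO and WT. They read 5′ to 3′ on the strand of the gene, with the fixed letters of the element in capitals.
Calr, chr8:84847060-84847108, minus strand: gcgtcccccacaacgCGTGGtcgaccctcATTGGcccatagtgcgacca
Canx, chr11:50325785-50325833, minus strand: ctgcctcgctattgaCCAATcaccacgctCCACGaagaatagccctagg
Hspa5, chr2:34772010-34772058, plus strand: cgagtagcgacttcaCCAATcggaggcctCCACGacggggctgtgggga
Pdia6, chr12:17266476-17266524, plus strand: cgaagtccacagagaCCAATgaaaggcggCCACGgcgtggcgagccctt
Dnajc3, chr14:118937812-118937860, plus strand: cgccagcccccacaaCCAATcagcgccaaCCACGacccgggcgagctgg
Creld2, chr15:88819505-88819553, plus strand: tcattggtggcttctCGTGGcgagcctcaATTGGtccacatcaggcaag
Hsp90b1, chr10:86705518-86705671, minus strand: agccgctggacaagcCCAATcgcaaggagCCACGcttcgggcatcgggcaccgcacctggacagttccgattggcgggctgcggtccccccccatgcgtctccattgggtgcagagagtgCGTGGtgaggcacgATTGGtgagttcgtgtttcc

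In vehicle the 7 genes with the element had log2 differences of -0.80 (Calr), 0.53 (Canx), -0.12 (Hspa5), -0.31 (Pdia6), -0.27 (Dnajc3), 0.11 (Creld2) and -0.09 (Hsp90b1). Calr and Creld2 carry it in the reversed orientation and Hsp90b1 carries it in both. The shorter ERSE-II, written ATTGG, 1 base of any kind and CCACG, stood in 12 promoters (0.0365%), that of Dnajb11 among them. A match is a description of these letters and not a site shown to be used.

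The core of the XBP1 element, TGACGTGG, stood in 222 promoters (0.676%) and in 3 of the 28, those of Kdelr3, Sec24d and Sec23a. It shares the letters CCACG with the ER stress element on the opposite strand, and no gene of the list held both. For Kdelr3, the gene with the largest difference, 200 bases before the start are shown, and for Sec24d the stretch around the core, with the core in capitals. In Sec23a it lies after the start. The same 200 bases of Ssr4 held none of these motifs, and its capitals mark AGGTCA, the retinoid receptor half-site, which stood in 5340 promoters (16.3%) and in 4 of the 28 matched genes (14.3%).
Kdelr3, chr15:79516208-79516407, plus strand: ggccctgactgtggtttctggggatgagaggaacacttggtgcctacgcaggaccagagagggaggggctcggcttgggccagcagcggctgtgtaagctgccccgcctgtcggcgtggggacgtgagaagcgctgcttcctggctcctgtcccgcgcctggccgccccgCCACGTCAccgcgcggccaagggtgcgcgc
Sec24d, chr3:123267455-123267492, plus strand: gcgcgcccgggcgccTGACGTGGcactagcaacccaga
Ssr4, chrX:73786823-73787022, plus strand: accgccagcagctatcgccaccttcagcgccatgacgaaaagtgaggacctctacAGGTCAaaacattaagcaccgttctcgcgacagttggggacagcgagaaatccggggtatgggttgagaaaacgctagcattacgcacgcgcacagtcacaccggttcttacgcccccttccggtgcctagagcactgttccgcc

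RA against vehicle gave no call in either genotype. In KO, 0 of the 32 genes were called by limma (1 at an unadjusted p under 0.05), beside 0.148% of all genes, and 0 in the run-blocked fit, beside 0.495%. In WT, 0 were called (1 at an unadjusted p under 0.05), beside 0.824% of all genes, and 0 in the run-blocked fit, beside 3.35%. The difference between the RA changes in KO and WT was called for 0 genes (1 at an unadjusted p under 0.05), and 0% of all genes were called. With runs blocked it was called for 0 of the list and for 0.0879% of all genes. Over the 12254 genes above background, 737 in KO, 1406 in WT and 478 for the difference had an unadjusted p under 0.05 in limma.

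The median RA change of the 32 genes was 0.13 in KO, with 28 above 0, and -0.01 in WT, with 14 above 0. Over all genes the medians were -0.05 in KO and 0.05 in WT. Without KO_vehicle replicate 3, the array with the highest median signal, the KO medians were 0.06 for the list and 0.02 for all genes. They were 0.09 and 0.00 with quantile normalization, and 0.38 and 0.20 with each array centred on its median. In KO 4 genes had arrays that did not overlap between RA and vehicle, all higher in RA, beside 10.9% of all genes (5.1% higher). In WT this held for 2, Sec24d higher and Ssr2 lower, beside 17.9% of all genes (10.7% higher and 7.11% lower). Of the 12254 genes above background, 1393 did not overlap in KO (867 higher) and 2582 in WT (1507 higher and 1075 lower).

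The intervals bound these RA changes. In KO 24 of the 32 genes had a 95% interval that lay wholly within a 1.5-fold change in either direction, and 31 within a 2-fold change. In WT 23 lay within 1.5-fold and 32 within 2-fold. For the difference between genotypes the intervals were wider, with 11 within 1.5-fold and 28 within 2-fold.

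**Figure D3:**
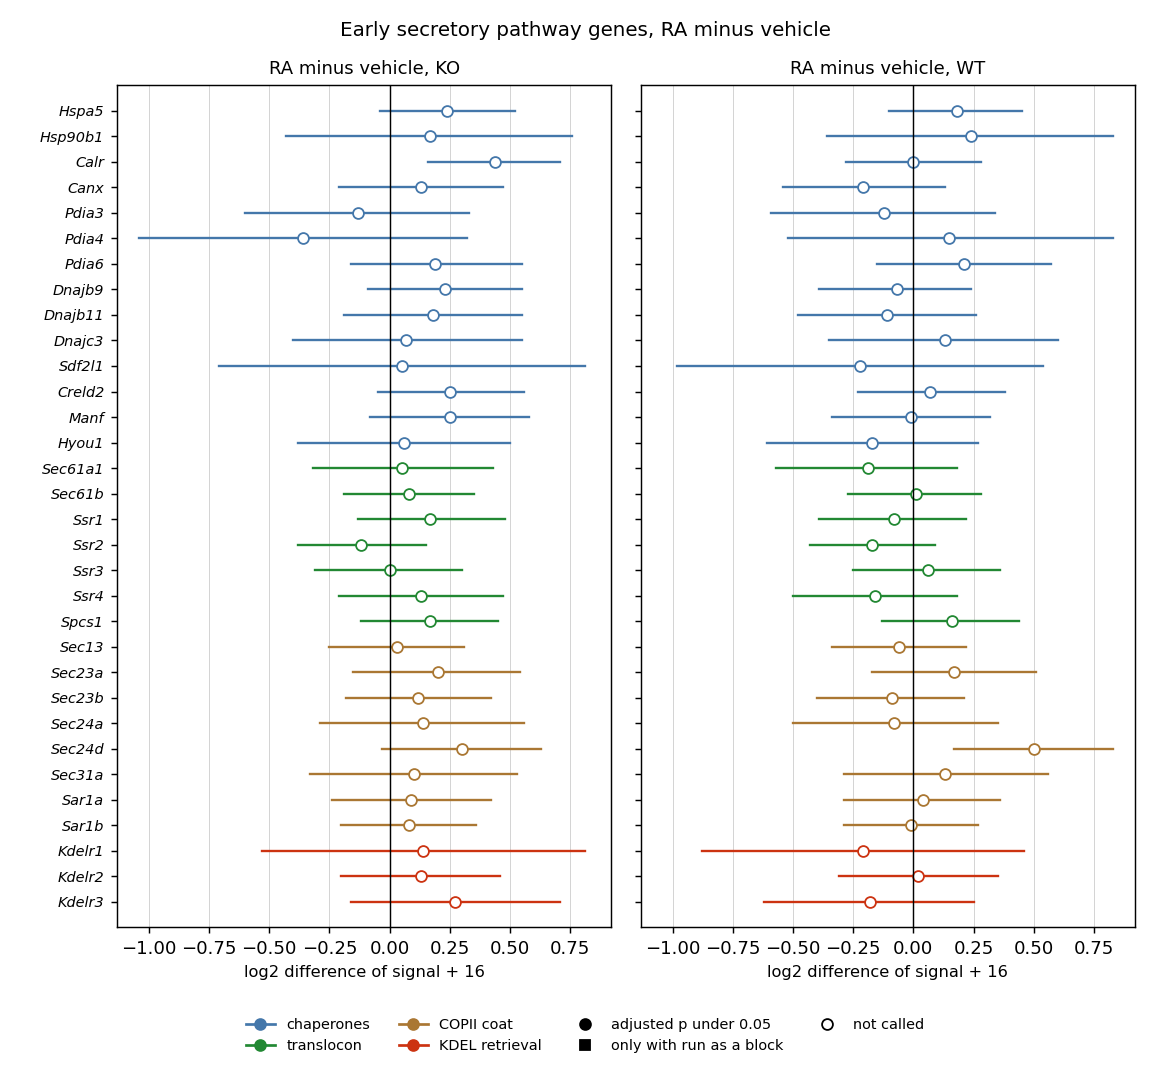
Log2 difference of signal + 16 between RA and vehicle (x axis) for the 32 genes (y axis, coloured by role), in KO on the left and WT on the right. Points are limma estimates, lines 95% intervals, and open points did not pass. Calr in KO at 0.44 and Sec24d in WT at 0.50 are the points whose intervals do not reach 0.

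Among the chaperones, Calr had the smallest p for RA in KO: 14580, 13350 and 12240 in KO_RA, against 10530, 10260 and 8885 in KO_vehicle. The groups did not overlap, and the change was 0.44 (SE 0.131, unadjusted p = 0.00391, limma adjusted p = 0.557, or 0.169 in the run-blocked fit). It was 0.46, 0.47 and 0.38 in runs 1, 2 and 3. In WT the Calr signals were 16980, 18290 and 16170 in WT_RA, against 17020, 16320 and 18100 in WT_vehicle, and overlapped. The Calr changes in KO and WT differed by 0.44 (SE 0.185, unadjusted p = 0.0303, adjusted p = 0.978). Hspa5, the chaperone with the smallest p in WT, changed by 0.18 there and by 0.24 in KO (SE 0.132, adjusted p = 0.925 and 0.869).

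Sec24d was the gene with the smallest p for RA in WT. Its signals were 1362, 1719 and 1441 in WT_RA, against 1036, 968.9 and 1169 in WT_vehicle, with no overlap. The change of 0.50 (SE 0.157, unadjusted p = 0.00531) had an adjusted p of 0.321 in limma and 0.0601 with runs blocked, and it was 0.30, 0.39 and 0.82 in runs 1, 2 and 3. Without the arrays of run 1 it was 0.60 and called (adjusted p = 0.0212). In KO the Sec24d signals were 1134, 1033 and 1059 in KO_RA, against 771.8, 906.5 and 939.9 in KO_vehicle, also with no overlap, and the change was 0.30 (adjusted p = 0.857). The Sec24d changes in KO and WT differed by -0.20, not called. Sec23b had the smallest p of the COPII coat for the difference between genotypes, at 0.22, not called. Its signals were 4764, 4648 and 4827 in KO_RA, against 4690, 4221 and 4190 in KO_vehicle. They were 3700, 3923 and 4919 in WT_RA, against 4142, 4077 and 5150 in WT_vehicle, and the arrays overlapped in both genotypes.

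Of the translocon genes and KDEL receptors, 0 had an unadjusted p under 0.05 for RA in either genotype. The translocon gene with the smallest p in KO was Spcs1, with 8651, 8029 and 7801 in KO_RA, against 7601, 7864 and 6380 in KO_vehicle. These arrays overlapped, and the change was 0.17 (SE 0.134, limma adjusted p = 0.922). In WT it was Ssr2, with 4379, 4354 and 4492 in WT_RA, against 4889, 4738 and 5243 in WT_vehicle. All WT_RA arrays were below all WT_vehicle arrays, and the change was -0.17 (SE 0.124, adjusted p = 0.923). Ssr1, the translocon gene with the smallest p for the difference between genotypes, had 3845, 4683 and 4327 in KO_RA, against 4742, 5218 and 5154 in WT_RA. Its RA changes in KO and WT differed by 0.26 (SE 0.204, adjusted p = 0.978). Kdelr3 changed by 0.27 in KO and by -0.18 in WT (SE 0.207, adjusted p = 0.917 and 0.967). These Kdelr3 changes differed by 0.46 (SE 0.293, 95% interval -0.16 to 1.08), which was 0.53, 0.48 and 0.36 in runs 1, 2 and 3 and not called.

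Further genes of the same pathway, 96 asked and 92 measured in 6 lists, were counted in the same fits. In vehicle 11 of the 92 fell in KO and 0 rose, and in RA 8 fell and 1 rose. Of all genes 6.42% were called in vehicle and 7.55% in RA, and of those above background, as 90 of the 92 are, 9.37% and 11%, so 9 of 92 in RA is near these shares. With runs blocked 25 fell and 2 rose in vehicle, and 15 fell and 2 rose in RA, beside 13.5% and 14.5% of all genes and 19.8% and 21.3% of those above background. Their median difference was -0.13 in vehicle and -0.15 in RA. RA changed 0 of the 92 in KO and 0 in WT by limma (1 and 6 at an unadjusted p under 0.05), and in the run-blocked fit 0 in KO and 1 in WT. Of the 12254 genes above background, 737 in KO and 1406 in WT had an unadjusted p under 0.05. The run-blocked fit called 90 and 606 of them.

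**Figure D4:**
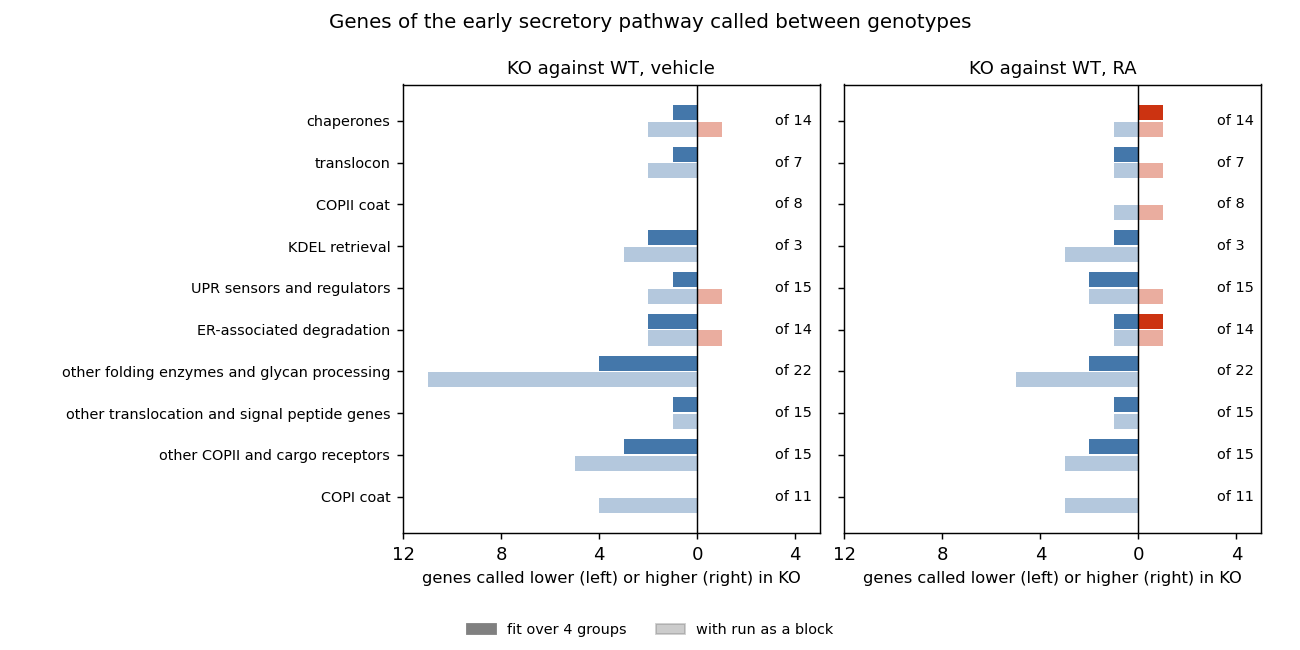
Number of genes called lower (bars to the left of 0) or higher (to the right) in KO (x axis) in the 4 roles and in 6 further lists of the pathway (y axis), in vehicle on the left and RA on the right. Dark bars are from the fit over 4 groups and pale bars from the run-blocked fit; the number of genes measured stands at the right. Other folding enzymes hold the longest bars, with 4 of 22 lower in vehicle, and 11 in the run-blocked fit.

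Of 22 other folding and glycan-processing enzymes, 4 fell in vehicle and 2 in RA, beside 5.95% and 6.22% of genes above background. With runs blocked 11 fell in vehicle and 5 in RA, beside 1411 and 1390 of the 12254 genes above background. In either direction that fit called 19.8% and 21.3% of the genes above background. Their median difference was -0.42 in vehicle and -0.19 in RA. Pdia5, a disulfide isomerase, had 897.9, 857.1 and 750.3 in KO_vehicle, against 1903, 2013 and 1927 in WT_vehicle. In RA it had 1081, 1013 and 881.7 in KO_RA, against 2614, 2715 and 2639 in WT_RA. The KO arrays lay far below the WT arrays in both, with differences of -1.21 and -1.41 (SE 0.142, limma adjusted p = 7.36e-05 and 1.19e-05). Dnajc10, a reductase with a J domain, fell by 0.79 in vehicle and by 0.74 in RA (adjusted p = 0.00261 and 0.00326). The cyclophilin gene Ppib fell in vehicle by 0.73 (adjusted p = 0.0193).

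In 15 other COPII and cargo receptor genes 3 fell in vehicle and 2 in RA, beside 5.95% and 6.22% of genes above background. Lman1 and Mcfd2 encode the pair that carries some glycoproteins out of the ER. Lman1 fell by 0.61 in vehicle and 0.65 in RA (limma adjusted p = 0.0106 and 0.00527), and Mcfd2 by 0.75 and 0.76 (adjusted p = 0.00454 and 0.00326). Surf4, a cargo receptor, fell by 0.68 in vehicle (adjusted p = 0.0363). Of 15 other translocation genes 1 fell in each comparison, Tram1, which encodes a protein at the channel, by 0.81 in vehicle and 0.71 in RA (adjusted p = 0.00403 and 0.00858). None of 11 COPI genes, whose coat carries KDEL receptors and their cargo back to the ER, was called by limma in either comparison (5 in vehicle and 3 in RA at an unadjusted p under 0.05). With runs blocked 4 fell in vehicle and 3 in RA. Of the 12254 genes above background, 3246 in vehicle and 3339 in RA had an unadjusted p under 0.05. The run-blocked fit called 19.8% and 21.3% of them in either direction, with 1411 and 1390 lower.

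Of 15 sensors and regulators of the unfolded protein response 1 fell in vehicle and 2 in RA. All 15 lay above background, where 5.95% of genes fell in vehicle, and 6.22% fell and 4.82% rose in RA. Counts of 1 or 2 do not set this list, or that of the degradation genes below, apart from these shares. Creb3l2, a membrane-bound transcription factor known in mouse cartilage for raising COPII genes, had 172.6, 158.7 and 206.6 in KO_vehicle, against 454.8, 550.4 and 435 in WT_vehicle. In RA it had 213.7, 243.8 and 111.3 in KO_RA, against 875.8, 788.1 and 556.2 in WT_RA. The groups did not overlap, and the differences were -1.34 and -1.92 (SE 0.279, limma adjusted p = 0.00903 and 0.000389). Ddit3, encoding the stress factor CHOP, fell by 1.12 in RA (adjusted p = 0.0426). Of 14 genes of ER-associated degradation 2 fell in vehicle. Herpud1, which helps to assemble the degradation complex, fell by 0.69 and Ube2j1, a ubiquitin-conjugating enzyme, by 0.76 (adjusted p = 0.019 and 0.0367). In RA Herpud1 fell by 0.58 (adjusted p = 0.0465) and Derl2, a membrane protein of the exit route for misfolded proteins, rose by 0.63 (adjusted p = 0.0237).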

How the data were processed

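The deposited values are signal intensities made by the authors with MAS5, per the submitters' processing notes. They are linear, and the mean of each array, once 2% of probe sets is trimmed from either end, is 500. The MAS5 version is not given in the sources used here. The deposited experiment records, text of the kind other than expression values, gave hybridization and scan times and the chip lot and served only to find batches. Of 45101 probe sets 64 controls were left out. Signals were taken as log2 of signal + 16 and fitted in R 4.3.3 with limma 3.58.1, using lmFit, then eBayes with its trend option, over 4 groups (8 residual degrees of freedom). The 5 contrasts set KO against WT within vehicle and within RA, RA against vehicle within each genotype, and the RA changes against each other. The fit with the fluidics run as a block had 6 residual degrees of freedom. Deviations from the group means correlated with a median of 0.18 between arrays of the same run (range 0.09 to 0.46) and of -0.18 between runs. Arrays have no read depth, so their number limits the precision. The rule for per-array values took, per contrast and role, the genes passing with or without the block, otherwise the one with the smallest p, and of each further list up to 3 genes with the smallest adjusted p per contrast. Genes, lists and this rule were chosen with earlier results of these data known.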

Additional observations from a re-analysis of the deposited data

How the results depend on the processing

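In 27 settings tried for each of 30 named values, 733 of 810 kept their direction and side of the threshold, 23 lost a call, 53 gained one, and 1 changed sign without a call (Hspa5 under RA in WT, -0.01 from its second brightest probe set). Some of these outcomes were fixed in advance. For genes with 1 probe set, the setting with the second brightest probe set repeats the main value. For the difference of the RA changes, so does the setting with only the groups compared. Leaving out single arrays gave 3 to 4 calls between KO and WT in vehicle, 3 to 4 in RA and 0 for each RA contrast. In vehicle 2 genes were called with centred arrays, 2 without the intensity trend, 7 with array weights, 8 with the run as a block, 7 with the block and without KO_vehicle replicate 3, 10 without run 1, and 10 with the block and quantile normalization. In RA, in the same order, 1, 1, 8, 9, 11, 13 and 11 were called, and 5 with quantile normalization alone. Sec24d was the 1 call for RA in WT, with array weights, with the block without KO_vehicle replicate 3, and without run 1. Kdelr2 in vehicle lost its call in 15 settings. Ssr4 lost its calls with its second brightest probe set (0.00 in vehicle and -0.27 in RA), and Calr in vehicle and Canx and Ssr4 in RA lost theirs with centred arrays (-1.01, 1.00 and -0.75) and without the intensity trend (-0.80, 0.87 and -0.88). Settings without run 1, with the chip lot as a block, with block and quantile normalization together, and without the 2 arrays scanned late were chosen after seeing the data. The sample titles share no replicate numbers between groups, so arrays were paired by fluidics run, and the run-blocked fit is the paired analysis. The cause of these shifts was not tested. With 3 arrays a group, small changes such as those of the chaperones with intervals beyond 1.5-fold could not be resolved.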
